A study of Drosophila melanogaster with 6 samples.

Results

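Indirect flight muscle (IFM) was compared with whole leg in pupae of Drosophila melanogaster, through gene expression, exon use and introns that the annotation lacks. The libraries were chosen by their tissue label alone, which took 4 of the 6 libraries of the series, 2 of IFM and 2 of leg. All came from w[1118] animals, a white-eyed laboratory strain that serves as wild type, raised at 27 °C and taken at 72 h after puparium formation (APF), so that genotype, age and temperature were shared. IFM was dissected and is labelled fibrillar muscle. The leg was taken whole and holds tubular muscle beside epidermis, tendon cells, nerves and sensory organs. In such bulk samples, fewer cells of a type and less RNA per cell cannot be told apart. The study's supplement calls the replicates biological and independent. How many animals stand behind a library is not given in the sources used here. The labels name GENEWIZ for library preparation of IFM and LC Sciences for leg, whereas the methods name LC Sciences throughout. By the labels, provider and tissue cannot be told apart in any comparison that follows.

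Flight muscle of the fly is stretch-activated: its fibrils contract many times for each nerve impulse, and the wing beat is fuelled by very large mitochondria and by glycolysis. Leg muscle is tubular and contracts in step with its nerve impulses, each of which releases calcium that has to be pumped back. Both build sarcomeres from thick filaments of myosin, thin filaments of actin with tropomyosin and the troponins, Z-discs that anchor thin filaments, and titin-like proteins that tie the filaments together. Flies make muscle types differ by expressing another member of a gene family and by splicing another exon of the same gene. The selector salm turns on the flight muscle programme, and bru1 (also called arrest or Bruno) is an RNA-binding protein that directs its splicing.

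Exon counts were given for 12069 genes in 59967 exon bins, the smallest pieces into which annotated exons divide. The columns summed to 96101554 counts in IFM 1, 177948423 in IFM 2, 75151629 in leg a and 79540245 in leg b. The leg columns carry no replicate number and are called leg a and leg b for that reason. Replicates resembled each other across genes (Pearson r of log2(CPM + 1) of 0.974 in IFM and 0.989 in leg) more than they resembled the other tissue (0.706 to 0.767), as a description across genes that are not independent. The 10 most counted genes held 31.3% of counts in IFM and 27.5% in leg. The mitochondrial genome gave 12.01% of counts in IFM 1 and 3.44% in IFM 2, against 1.22% and 1.29% in leg. Marker lists of muscle types, epidermis and tendon matched the labels. All 4 flight muscle markers were called higher in IFM. All 3 tubular muscle, 6 epidermis and 4 tendon markers were called higher in leg. Glia markers gave 5 calls for leg and 0 for IFM among 8 tested, and mechanosensory markers 4 and 1 among 5. IFM also had higher levels of markers of other tissues. The summed level of the blood cell and fat body markers was 1439 and 1254 CPM in IFM and 391 and 493 CPM in leg, and 9 of 12 were called higher in IFM. That of the sperm and testis markers was 564 and 201 CPM in IFM and 20.2 and 1.29 CPM in leg, with 7 of 9 called. Of all genes tested, 30% were called higher in IFM and 28.9% in leg.

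Expression differed between the tissues over much of the genome. A level is given as CPM, counts scaled to a common library size with TMM, which sets the middle of all genes equal. Of 9805 genes tested, 5775 (58.9%) were called at an adjusted p below 0.05 in edgeR's quasi-likelihood test. Of all genes tested, 2941 (30%) were higher in IFM and 2834 (28.9%) in leg. A change of at least 8-fold was seen in 952 genes called for IFM and 546 called for leg, and one of at least 32-fold in 475 and 128. With the total of the library as the only scaling, the median log2 fold change of all genes was -0.67 in place of 0.004, and the share of calls that were higher in IFM was 28.0% in place of 50.9%. Directions below are relative to the middle of all genes. Some genes overlap a neighbour in part of their exons, where reads of the neighbour cannot be told apart. Among those named below this holds for fln, Strn-Mlck, sls, sals, Act87E, TpnC25D, E2f1, hth, lms, Rbp9, Amph, Ca-alpha1D, SERCA, ATPsynbeta, Ald1, Mtpbeta, Mcad, whd, rhea and nompA. Leaving out leg a gave the fewest calls, 4184.

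Thick filament genes were mostly higher in IFM. Of 11 tested genes of the thick and connecting filaments, 6 (54.5%) were called higher in IFM and 2 (18.2%) in leg, beside 30% and 28.9% of all genes. Their median log2 fold change was 1.19. Flightin (fln), which binds the thick filaments of flight muscle, stood at 14865 and 16541 CPM in IFM and 381 and 325 CPM in leg (log2 fold change 5.48 ± 0.28 SE, n = 2 and 2, edgeR adjusted p = 9.35e-04). Its groups were the farthest apart in the list. Strn-Mlck, a stretchin of the titin family with a myosin light chain kinase domain, reached 19266 and 29464 CPM against 1302 and 891 CPM (log2 fold change 4.47 ± 0.42, adjusted p = 0.00227). Unc-89, the fly obscurin of the M-line, reached 17506 and 28975 CPM against 4719 and 4369 CPM (log2 fold change 2.35 ± 0.36, adjusted p = 0.0077). In both genes each IFM library lay above both leg libraries. The groups did not overlap, in either direction, in 8362 of the 9805 genes tested.

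The core of the filament moved less. Mhc, the muscle myosin heavy chain of the fly, on chromosome 2L from 16766566 to 16788766 (BDGP6), was the most counted gene of the list. It stood at 93847 and 151795 CPM in IFM and 42822 and 42393 CPM in leg (log2 fold change 1.53 ± 0.41, adjusted p = 0.035). Mlc2, its regulatory light chain, was at 42646 and 50405 CPM against 20612 and 20110 CPM (log2 fold change 1.19 ± 0.29, adjusted p = 0.0272). The essential light chain Mlc1 (log2 fold change 0.67 ± 0.28, adjusted p = 0.105), projectin (bt, 1.20 ± 0.39, adjusted p = 0.0558) and sallimus (sls, 1.01 ± 0.33, adjusted p = 0.0563) missed the threshold, and DESeq2 called all of these. Thin (tn), which keeps costameres stable, was called at 0.96 ± 0.19. The calls of Mhc, Mlc2, Unc-89 and tn were lost without leg a and without leg b. Those of Mhc, Mlc2 and tn were also lost under total scaling, that is, with the library total alone. Without a filter, Mhc and Mlc2 lost theirs too. Paramyosin (Prm), the core protein of thick filaments, went the other way, at 2693 and 3372 CPM against 6664 and 7000 CPM (log2 fold change -1.17 ± 0.23, adjusted p = 0.0146). Myofilin (Mf) did too, at 2538 and 2744 CPM against 5396 and 4885 CPM (log2 fold change -0.96 ± 0.20), and both lost their call without either leg library.

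Thin filament genes had calls in both directions, and paralogs of actin and troponin C were among both. Of 16 tested, 4 (25%) were called higher in IFM and 8 (50%) in leg, beside 30% and 28.9% of all genes. The flight muscle actin Act88F stood at 38950 and 58668 CPM in IFM and 1324 and 1351 CPM in leg (log2 fold change 5.19 ± 0.40, adjusted p = 0.00155). Act79B ran opposite, at 2798 and 2183 CPM against 17672 and 20246 CPM (log2 fold change -2.93 ± 0.28, adjusted p = 0.00242). Act87E did so more steeply, at 107 and 128 CPM against 7673 and 8295 CPM (log2 fold change -6.09 ± 0.26). Per kilobase of counted exon, Act88F made up 93.2% and 96.3% of these 3 actins in the IFM libraries and 5.32% and 4.83% in the leg libraries. Act79B made up 70% and 71.4% in leg. Coding sequences of actins are nearly alike, and how the counting split reads between them is uncertain.

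Troponin C, the calcium sensor of the thin filament, changed partners in the same manner. TpnC4 reached 6395 and 7401 CPM in IFM and 119.5 and 105 CPM in leg (log2 fold change 5.94 ± 0.26, adjusted p = 8.71e-04). TpnC41C was at 335 and 164 CPM against 2562 and 2652 CPM (log2 fold change -3.39 ± 0.42, adjusted p = 0.00449). TpnC25D was at 3.54 and 5.11 CPM against 313 and 324 CPM (log2 fold change -6.20 ± 0.27). Per kilobase, TpnC4 supplied 97.3% and 98.7% of the level of the 5 troponin C genes in IFM and 7.28% and 6.24% in leg. TpnC41C supplied 70.5% and 71.2% in leg and TpnC25D 14.6% and 14.8%. Proteins of the thin filament that are not switched by paralog were closer. Troponin T (up) stood at 16874 and 20730 CPM in IFM and 15624 and 16029 CPM in leg (log2 fold change 0.25 ± 0.27, adjusted p = 0.454). Troponin I (wupA, 0.72 ± 0.25) and the tropomyosins Tm1 (0.58 ± 0.26) and Tm2 (0.77 ± 0.31) missed the threshold in edgeR and were called by DESeq2. Among regulators of actin filaments, sals (log2 fold change 2.35 ± 0.21) and the formin Fhos (1.61 ± 0.22) were higher in IFM. The filament cap tmod (-2.24 ± 0.30) and the formin DAAM (-0.99 ± 0.17) were higher in leg, as were TpnC73F (-2.46 ± 0.12) and TpnC47D (-2.39 ± 0.21).

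**Figure D1:**
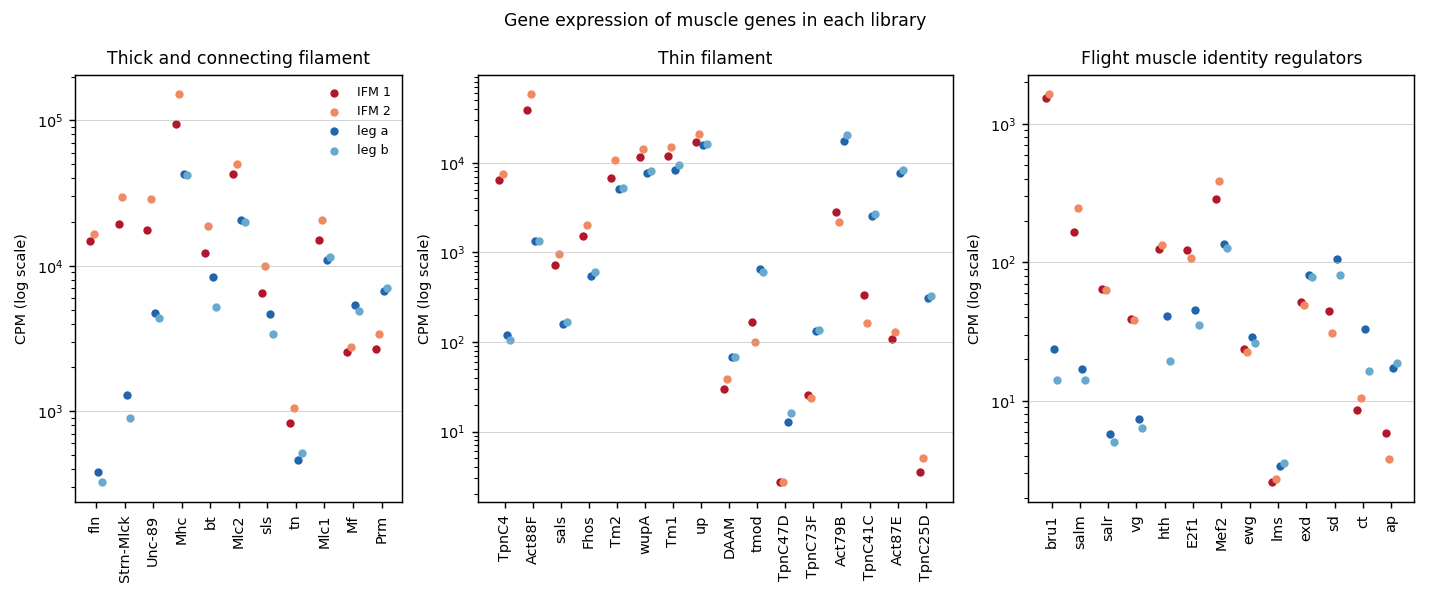
Expression of muscle genes in each library, as CPM on a log axis, for the thick and connecting filament, the thin filament and the flight muscle identity regulators. Each point is 1 library (IFM 1 and 2 in reds, leg a and b in blues), and genes run from the highest to the lowest log2 fold change of IFM over leg. fln, TpnC4 and bru1 stand at the IFM end and Act87E and TpnC25D at the leg end, while up is nearly level.

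Among the regulators known to set flight muscle identity, 7 of 13 tested (53.8%) were called higher in IFM and 4 (30.8%) in leg. Of all genes, 30% and 28.9% were, so the share for leg lies near that of all genes. The median log2 fold change of the list was 1.36. bru1, on chromosome 2L from 12201326 to 12313438, stood at 1528 and 1642 CPM in IFM and 23.5 and 14.2 CPM in leg (log2 fold change 6.39 ± 0.36, adjusted p = 9.87e-04). salm reached 164 and 248 CPM against 17 and 14 CPM (log2 fold change 3.73 ± 0.28, adjusted p = 0.00152), and its paralog salr 64.1 and 63.2 CPM against 5.8 and 5.05 CPM (3.55 ± 0.15). vg (2.5 ± 0.15), hth (2.10 ± 0.40), E2f1 (1.51 ± 0.18) and Mef2 (1.36 ± 0.20), transcription factors of muscle or wing fate and growth, were higher in IFM as well. ap (-1.90 ± 0.27), ct (-1.36 ± 0.39), sd (-1.31 ± 0.25) and exd (-0.65 ± 0.12), which also pattern epidermis, were higher in leg. The call of hth was lost without IFM 2, that of exd without either leg library, and that of ct without IFM 1, IFM 2 or leg a. ewg (-0.26 ± 0.14) and lms (-0.38 ± 0.24) missed the threshold.

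Of 18 tested regulators of splicing, bru1 included, 7 (38.9%) were called higher in IFM and 2 (11.1%) in leg, beside 30% and 28.9% of all genes. bru2, a paralog of bru1, was at 47 and 41.3 CPM against 9.42 and 5.72 CPM (log2 fold change 2.55 ± 0.30, adjusted p = 0.00379). Rbp9, of the ELAV family, was at 968 and 1082 CPM against 454 and 450.2 CPM (1.18 ± 0.15, adjusted p = 0.00515), and Rbfox1 had a log2 fold change of 1.06 ± 0.30. Muscleblind (mbl) was at 38.2 and 21.4 CPM against 157 and 64.5 CPM (-1.89 ± 0.55), with a wide gap between leg a and leg b. Held out wings (how, -1.16 ± 0.25) was higher in leg too. Per kilobase, bru1 made up 95.5% and 96.3% of the level of bru1, bru2 and bru3 in IFM and 56% and 60.4% in leg.

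Z-disc and calcium genes had calls in both directions. Zasp67, a PDZ-domain protein related to Zasp52, was at 1088 and 1421 CPM in IFM and 27.7 and 23.6 CPM in leg (log2 fold change 5.61 ± 0.25, adjusted p = 8.96e-04). The muscle LIM protein Mlp84B was at 43.3 and 25 CPM against 1128 and 1195 CPM (-5.09 ± 0.36, adjusted p = 0.00135), and the calponin-like Mp20 at 12.4 and 15.1 CPM against 558 and 607 CPM (-5.40 ± 0.20). The other muscle LIM protein, Mlp60A, was higher in IFM, at 4946 and 5502 CPM against 1580 and 1761 CPM (1.65 ± 0.20), a call lost without leg a. Z-disc and LIM genes thus gave 4 calls for IFM (40%) and 5 for leg (50%) among 10, beside 30% and 28.9% of all genes. Of 11 calcium handling genes, 4 were higher in IFM and 4 in leg, shares of 36.4% each that lie near the 30% and 28.9% of all genes. The pump SERCA, which returns calcium to the sarcoplasmic reticulum, was at 4280 and 5968 CPM in IFM and 20424 and 22325 CPM in leg (-2.06 ± 0.30, adjusted p = 0.0067). The exchanger Calx (-2.62 ± 0.22) and the calcium store sensor Stim (-1.22 ± 0.12) were higher in leg too. The release channel RyR (1.23 ± 0.35), the membrane channel Ca-alpha1D (1.56 ± 0.21), junctophilin (jp, 0.85 ± 0.18) and amphiphysin (Amph, 1.60 ± 0.19), which shapes the T-tubules that carry the signal inward, were higher in IFM. The calls of RyR and jp were lost without either leg library and under total scaling, and that of RyR also without a filter.

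Genes of energy metabolism were higher in IFM as whole pathways, against the 30% of all genes called in that direction. All 32 tested subunits of complex I were called, with a median log2 fold change of 2.47. Its largest subunit ND-75 was at 1970 and 2466 CPM in IFM and 303 and 332 CPM in leg (2.81 ± 0.21, adjusted p = 0.00148). Of complexes III and IV, 20 of 22 were called higher and 1 lower. UQCR-C1, a core protein of complex III, was at 4409 and 5190 CPM against 719 and 850.4 CPM (2.61 ± 0.22). All 14 ATP synthase subunits were called, the catalytic beta subunit ATPsynbeta at 16585 and 20988 CPM against 2778 and 3195 CPM (2.65 ± 0.28, adjusted p = 0.00297). Fuel breakdown followed, with 14 of 15 genes of the citric acid cycle (median 2.76) and 20 of 21 of glycolysis and the glycerophosphate shuttle (median 2.82). Citrate synthase (kdn) was at 8239 and 13617 CPM against 1244 and 1288 CPM (3.11 ± 0.35). Aldolase (Ald1) was at 10501 and 14188 CPM against 1198 and 1135 CPM (3.40 ± 0.28), and the shuttle enzyme Gpo1 had a log2 fold change of 2.85 ± 0.24. In each of the genes named here both IFM libraries lay above both leg libraries, while 8362 of 9805 tested genes had groups without overlap.

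Genes of mitochondrial translation moved with the enzymes. All 70 mitochondrial ribosomal proteins were called higher in IFM, in a range of log2 fold changes from 1.63 to 3.41 around a median of 2.59. Of the mitochondrial genome, 8 of 9 transcripts were called, but the IFM libraries differed between themselves. mt:CoI, a core subunit of complex IV, stood at 73909 and 26803 CPM in IFM and 5864 and 6285 CPM in leg (3.05 ± 0.60, adjusted p = 0.0153), a call lost without either leg library. Fatty acid oxidation moved less. Its 8 genes gave 7 calls for IFM and 1 for leg, with a median of 0.89, the trifunctional enzyme subunit Mtpbeta at 210.5 and 251 CPM against 84.2 and 95.7 CPM (1.36 ± 0.16). The carnitine transferase whd was higher in leg, at 87.5 and 81.5 CPM against 154 and 165 CPM (-0.92 ± 0.13). Mcad, called for IFM at 0.54 ± 0.15, was at -0.15 under total scaling.

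Genes of protein synthesis and turnover were closer to level. Of 80 cytoplasmic ribosomal proteins, 48 were called higher in IFM and 0 in leg, with a median log2 fold change of 0.67. RpL41 was at 3143 and 2335 CPM against 1091 and 1144 CPM (1.29 ± 0.23). Its call was lost without either leg library and under total scaling. RpL7A (0.54 ± 0.17), RpS3A (0.47 ± 0.17) and RpL5 (0.51 ± 0.18) missed the threshold and were called by DESeq2. The median of this list is about as large as the shift of the median of all genes under total scaling. Of 41 proteasome genes, 22 (53.7%) were called for IFM and 0 for leg, beside 30% and 28.9% of all genes. Their median log2 fold change of 0.49 is smaller than that shift. Among chaperones, the mitochondrial Hsc70-5 (2.33 ± 0.15) and the myosin chaperone unc-45 (1.80 ± 0.13) were higher in IFM. The V-ATPase, a proton pump of epithelia and endosomes, ran the other way, with 4 calls for IFM (16.7%) and 13 for leg (54.2%) among 24. Vha55 was at 169.5 and 213 CPM against 376 and 373 CPM (-0.97 ± 0.17), a call lost without leg a.

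Several of these lists hold paralogs that were counted at low levels. Among members under 10 CPM, a split made after values were seen, all 3 of complex I, all 4 of complexes III and IV, all 3 of ATP synthase and 9 of 10 of the proteasome were called higher in IFM. They include the largest log2 fold changes of their lists, 10.51 in ATP synthase and 11.24 in the proteasome, where members of at least 10 CPM reached 3.10 and 1.30. The V-ATPase had 4 of 6 low members called for IFM, which are all of its calls in that direction, and 12 of 18 members of at least 10 CPM called for leg. betaTub85D, the tubulin of the male germ line and one of the sperm and testis markers, was at 89.2 and 34.4 CPM against 1.86 and 0.257 CPM (5.87 ± 1.17), also higher in both IFM libraries. The part of testis RNA in the low paralogs was not tested. Among members of at least 10 CPM, the medians were 2.45 for complex I, 2.41 for complexes III and IV and 2.65 for ATP synthase. For the proteasome the median was 0.31, with 13 of 31 such members called higher in IFM.

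**Figure D2:**
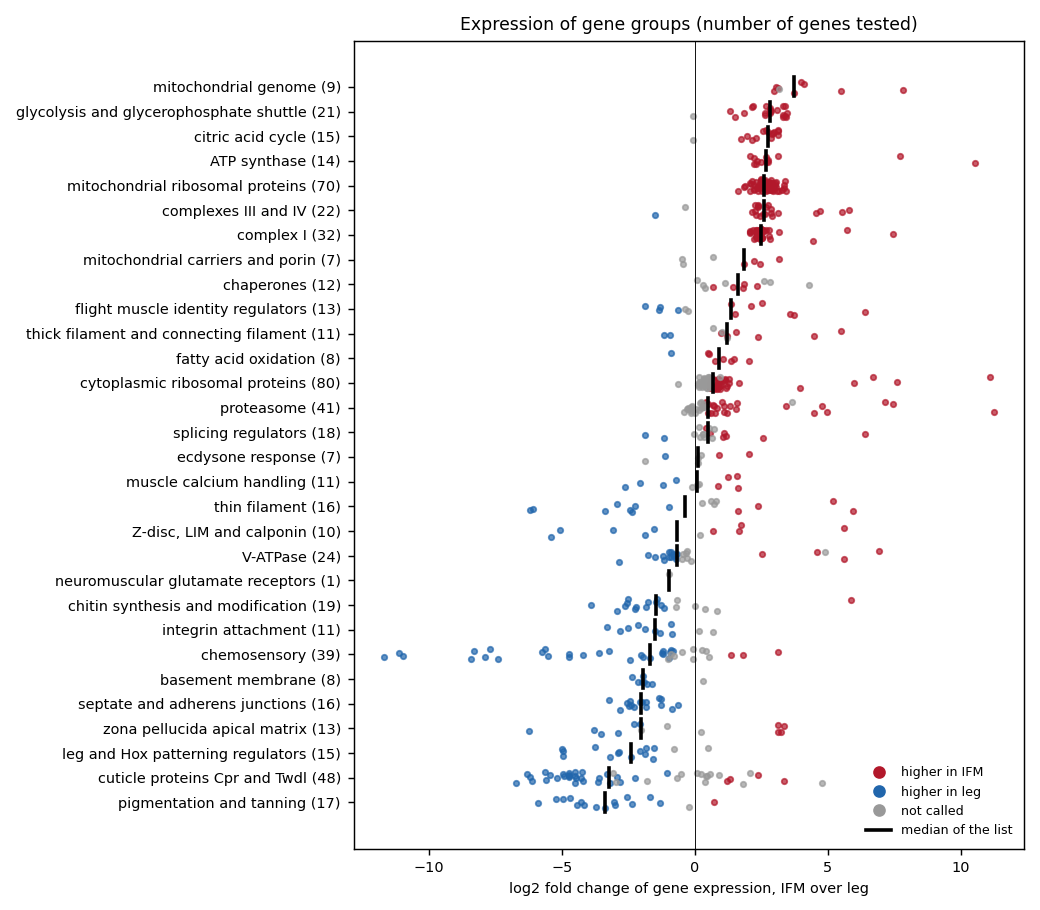
Log2 fold changes of expression, IFM over leg, for the genes of each list (points, with the number tested in brackets) and the median of each list (black bar). Red points were called higher in IFM, blue ones in leg and grey ones were not called. Medians of the citric acid cycle and glycolysis sit at 2.76 and 2.82, and those of cuticle and pigmentation at -3.25 and -3.38.

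Genes of the leg's surface formed the other pole. Of 48 tested cuticle proteins of the Cpr and Twdl families, structural proteins of the chitin matrix, 29 were called higher in leg (beside 28.9% of all genes) and 4 in IFM, with a median log2 fold change of -3.25. Cpr64Aa was at 279 and 509 CPM in IFM and 11605 and 12451 CPM in leg (-4.93 ± 0.42, adjusted p = 0.00185). Cpr62Bc was at 61.9 and 64 CPM against 5212 and 4811 CPM (-6.31 ± 0.22). Pigmentation and tanning genes gave 15 calls for leg among 17. Tyrosine hydroxylase (ple), the first step of the pathway, was at 44.3 and 75.7 CPM against 1725 and 1378 CPM (-4.69 ± 0.37). Of 19 genes that make or trim chitin, 13 were higher in leg. The deacetylase Cda5 was at 211 and 300.2 CPM against 1366 and 1108 CPM (-2.28 ± 0.26).

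Epithelial junctions and attachments were on the same side. All 16 septate and adherens junction genes were called higher in leg, as were 9 of 11 integrin attachment genes and 7 of 8 basement membrane genes. Of all genes, 28.9% were called higher in leg and 30% in IFM. Talin (rhea), which links integrins to actin, was at 179 and 206 CPM against 860.5 and 822 CPM (-2.13 ± 0.16). The collagen Col4a1 was at 240.0 and 493 CPM against 1648 and 1625 CPM (-2.16 ± 0.40). Tendon cells, to which muscles attach, were marked by thrombospondin (Tsp), at 21.7 and 18.3 CPM against 431 and 433 CPM (-4.43 ± 0.17). Of 15 patterning genes of legs and segments, 13 were higher in leg. Dll, the leg selector, was at 1.29 and 1.16 CPM against 41.9 and 35.8 CPM (-4.99 ± 0.19), and dac at 3.38 and 2.45 CPM against 43.4 and 35.6 CPM (-3.76 ± 0.25). Of 39 chemosensory genes, 27 were higher in leg and 3 in IFM. Most were counted at low levels: 28 had a mean under 10 CPM, with 22 of the calls for leg and 1 for IFM. The 11 of at least 10 CPM gave 5 calls for leg and 2 for IFM. The odorant-binding protein Obp56d was at 0.544 and 0.281 CPM against 98.6 and 95.5 CPM (-7.91 ± 0.39). Neuronal markers were less one-sided, with 2 calls for leg (22.2%) and 1 for IFM (11.1%) among 9, shares under those of all genes. The sodium channel para was at 148 and 31.7 CPM in the leg libraries, a wide gap within the tissue, and missed the threshold (-1.42 ± 0.77).

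The genes with the largest changes of all, among those with a mean of at least 50 CPM and no shared bins, were only partly muscle genes. On the IFM side stood bru1 and TpnC4, but also mt:ND2 (144 and 104 CPM against 0.612 and 0.495 CPM, log2 fold change 7.80 ± 0.29), FBgn0010549 (7.49 ± 0.35), apn (6.82 ± 0.36) and CG13272 (6.64 ± 0.44). Osi7 (6.70 ± 0.48), Osi9 (6.35 ± 0.23), Osi18 (6.30 ± 0.34) and Osi19, of an insect gene family of transmembrane proteins, filled the other places. Osi19 was at 1544 and 2033 CPM against 23.6 and 29.8 CPM (6.06 ± 0.29). The whole family was then grouped, after these values were seen. Of 12 tested Osi genes, 9 were called higher in IFM and 0 in leg, beside 30% and 28.9% of all genes. Their summed level was 7277 and 11682 CPM against 187 and 216 CPM. Zona pellucida proteins, which shape apical matrix, were split. dyl (3.10 ± 0.32), nyo (3.23 ± 0.41), mey (3.11 ± 0.45) and m (3.34 ± 0.80) were higher in IFM, while dpy (-2.07 ± 0.28), pio (-3.54 ± 0.13), nompA (-6.23 ± 0.16) and qsm (-3.80 ± 0.41) were higher in leg. nyo, mey and m had a mean under 10 CPM. Among the 7 zona pellucida genes of at least 10 CPM, 1 was called higher in IFM and 5 in leg. Of 5 genes listed as tracheal markers, only uif was in the exon table. It was higher in leg (-0.75 ± 0.18), a call lost without either leg library. How much trachea either tissue held cannot be read from this 1 gene.

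On the leg side, the largest change was that of CG7203, at 2.55 and 5.24 CPM in IFM and 2342 and 2491 CPM in leg (-9.27 ± 0.53, adjusted p = 0.00101). CG7214 was the most counted of the named ones, at 347 and 573 CPM against 47376 and 49772 CPM (-6.72 ± 0.46). Acp1, a cuticle protein, was at 9.55 and 25.9 CPM against 1635 and 1595 CPM (-6.51 ± 0.64). These 3 genes lie within one stretch of chromosome 2L, from 7740562 to 7753186. ATPsynGL, which lies between them, was higher in IFM (2.20 ± 0.60). CG13065 (-6.49 ± 0.49) and CG4962 (-6.38 ± 0.36) lie within 16277435 to 16295547 of chromosome 3L. The rest were CG33098 (-7.23 ± 0.39), CG13721 (-6.73 ± 0.75), the cytochrome P450 Cyp4c3 (-6.44 ± 0.31) and the cuticle proteins Cpr62Bc and Cpr49Aa (-6.19 ± 0.25).

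Exon use was then compared, that is, the share of a gene's counts that falls into each of its bins, so that a change of the gene as a whole cancels. Log2 use is the log2 change of a bin relative to its gene, IFM over leg. Of 50082 bins tested with edgeR's diffSpliceDGE, 712 (1.42%) were used more in IFM and 968 (1.93%) more in leg. By Simes' method over the bins of a gene, 590 of 7975 genes (7.4%) were called. The counts depend on each library. Without leg a, 841 bins in 266 genes were called, without leg b 786 in 250, without IFM 1 1262 in 392, and without IFM 2 1199 in 381. limma's diffSplice called 3361 bins in 1042 genes. Of the 590 genes, 227 were also higher in IFM in expression, 178 were higher in leg and 185 were not called for expression. Bins that only some transcripts of a gene contain were called in 9.98% of cases, and bins of every transcript in 0.478%. Bins of 5′ UTR alone were called in 8.5% of cases, of 3′ UTR alone in 4.74% and of coding sequence alone in 1.94%. First bins had a median log2 use of -0.30 and last bins of 0.11 over all genes. This tilt moved with tissue and provider. Without first and last bins, 1434 bins were called, and of the bins named below that were kept, CG42673 E012 and Chchd2 E002 lost their call. Named bins that are first or last were not tested in that setting. They include Cpr73D E006 and E001, Mlp60A E013, Lmpt E030, Stat92E E001, CkIIbeta E020, Rbp6 E002, CG9812 E001 and Cpr62Bb E001.

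By plain count, 8 of 11 thick filament, 7 of 16 thin filament, 4 of 10 Z-disc and 6 of 11 calcium handling genes were called for exon use, beside the 7.4% of all genes. Thick filament genes held 98 called bins among 276. Glycolysis gave 10 of 21 genes and cytoplasmic ribosomal proteins 18 of 75, whereas mitochondrial ribosomal proteins gave 1 of 47 and complex I 2 of 30.

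Mutually exclusive exons are neighbouring coding exons of nearly equal length of which a transcript carries a single one. In a search made after exon use had been seen, 62 runs of such bins were found in 51 genes, from the transcripts listed for each bin. Of these runs, 30 held a called bin, 24 differed by over 20 percentage points between the tissues in some exon's share of the run, and 12 by under 5. No minimum of counts was set for a run. In pip, which is among the 24, E006 had only 8 and 8 counts in IFM.

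Mhc has 5 such runs, and they did not move alike. In its run of 171-base exons, E019 (2L, 16775211 to 16775381) took 96.6% and 97.3% of the run's IFM counts and 25.2% and 23% of its leg counts (log2 use 2.0 ± 0.29, adjusted p = 3.83e-07). E020 took its place in leg, with 71% and 73.1% against 3.13% and 2.5%. In the run of 5 exons of 118 bases, E023 held 92.3% and 93.8% in IFM and 7.96% and 7.14% in leg (3.68 ± 0.32, adjusted p = 1.21e-15). There E025 held 77.6% and 79.7% in leg and 4.82% and 3.22% in IFM (-4.30 ± 0.33). In both runs the leading exon was a different one in each tissue. The run of 79-base exons changed in part. E032 had 32.9% and 32% in leg against 1.03% and 0.894% in IFM (-5.01 ± 0.34), and E031 led in both. In the run of 104-base exons, E014 had 6.3% and 6% in leg against 0.285% and 0.282% in IFM, and E017 led everywhere. In the run of 144-base exons, E010 held 99.9% and 99.9% in IFM and 99.7% and 99.8% in leg.

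Troponins T and I differed in exon use too, without a call for expression. In up (troponin T), E004 (X, 13594830 to 13594908) held 92.8% and 95.3% of its pair of 79-base exons in IFM and 12.7% and 12% in leg (3.09 ± 0.24, adjusted p = 5.72e-14). Of its small 5′ exons, the 24-base E010 took 0.0845% and 0.0799% of the gene's counts in IFM and 2.37% and 2.38% in leg (-4.86 ± 0.26), and the 42-base E013 0.0911% and 0.0755% against 2.63% and 2.67% (-5.01 ± 0.27). In wupA (troponin I), E007 held 95.3% and 94.8% of its run of 101-base exons in IFM and 57.3% and 59.5% in leg, which missed the threshold relative to the gene. E008 held 1.75% and 1.78% against 23.7% and 23% (-3.77 ± 0.21), and E010 1.85% and 2.15% against 17.5% and 16.4% (-3.11 ± 0.21). The 43-base coding bin E004 of wupA had 8.89% and 9.29% of the gene's counts in IFM and 0.429% and 0.364% in leg (4.53 ± 0.22). The 2 genes had 9 and 11 called bins.

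**Figure D3:**
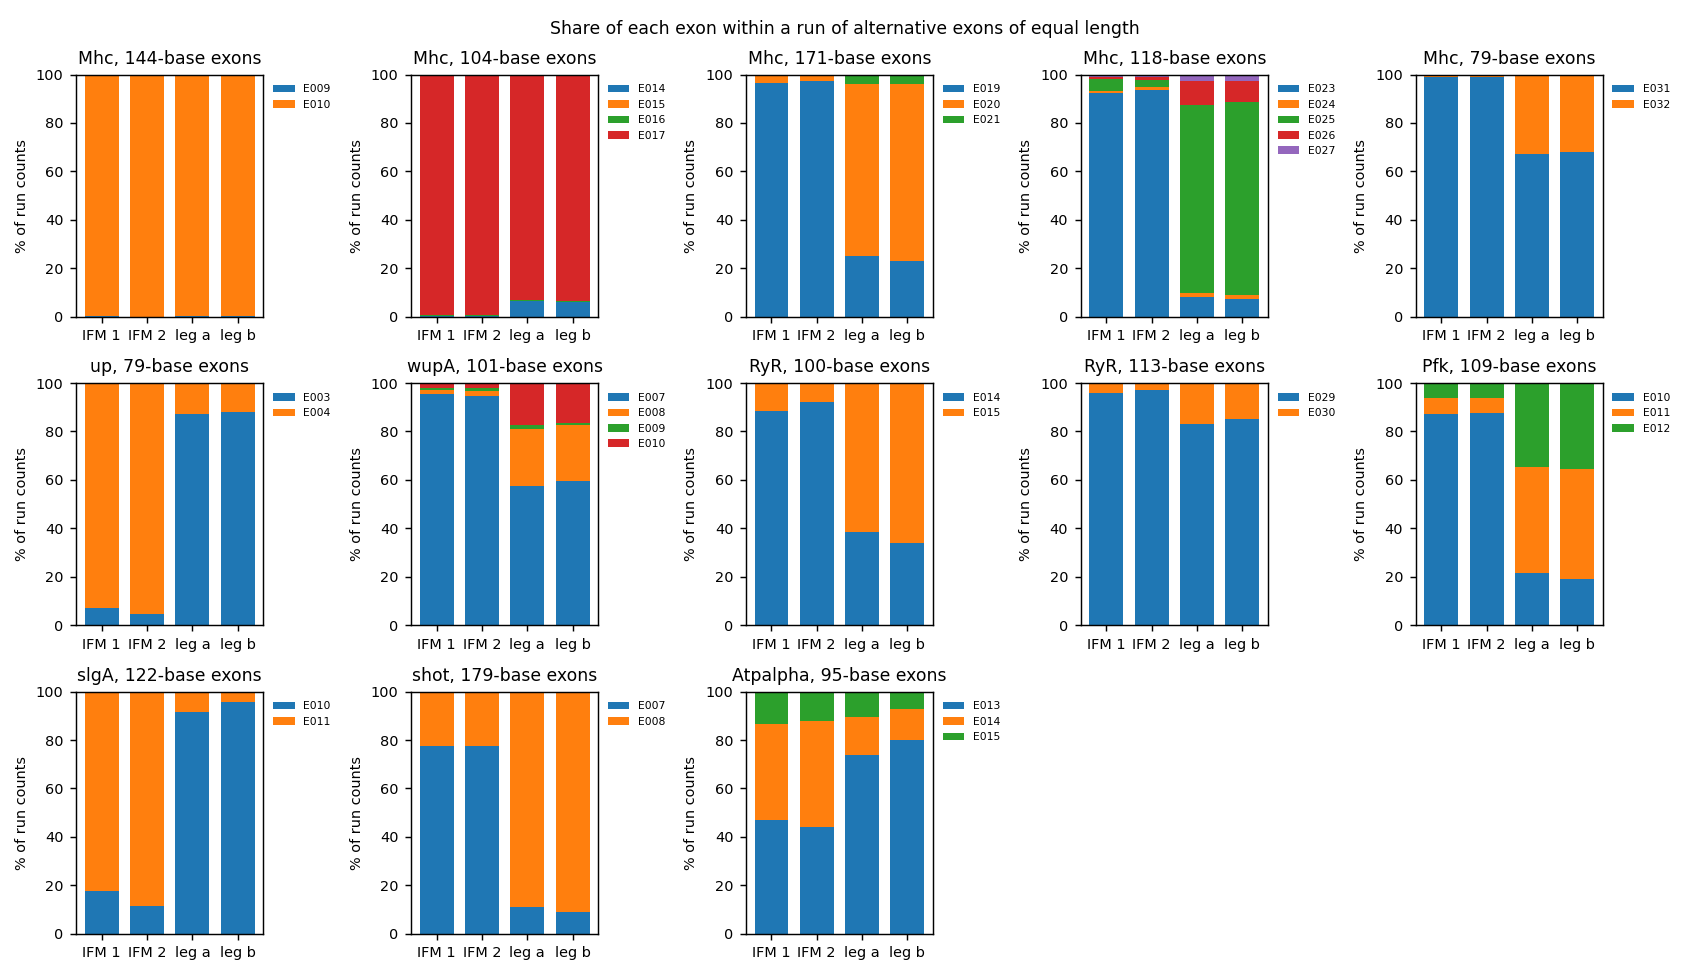
Share of each exon (colours, named by bin) in the counts of its run of alternative coding exons, per library, for runs of Mhc, up, wupA and other genes named in the text. Each bar is 1 library and sums to 100%. Mhc's 118-base run and the pair of up change their leading exon between IFM and leg.

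Other filament genes had bins that nearly belonged to 1 tissue. In Tm1, E032 (3R, 15306341 to 15307125), a coding bin of 1 transcript, took 11.4% and 12.8% of counts in IFM and 0.346% and 0.263% in leg (5.33 ± 0.25, adjusted p = 2.98e-29). The next bin E033 took 0.96% and 0.628% against 10.9% and 11% (-3.82 ± 0.23). Some products of this locus carry a long C-terminal extension in flight muscle and are known as troponin H. In Mlc1, the 47-base bin E003 had 0.805% and 0.58% against 8% and 8.35% (-3.59 ± 0.21). In Mf, E017 had 10.8% and 10.7% against 0.39% and 0.412% (4.75 ± 0.20). In sals, the 1241-base bin E009 had 1.46% and 1.3% against 27.5% and 27.7% (-4.32 ± 0.23), and E004 11.8% and 11.9% against 1.37% and 1.91%. The libraries of the 2 tissues did not overlap in any of these bins, which holds for 1677 of all 1680 called bins.

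At the Z-disc, Mlp60A changed its whole form. All 13 of its bins were called. The long form, E008 to E013, held most counts in IFM, where its last bin E013 held 29% and 28.7% of the gene's counts against 1.8% and 1.51% in leg (4.14 ± 0.19, adjusted p = 9.28e-17). The short form ends in E006 and E007. E006 held 9.18% and 9.38% in leg and 0.122% and 0.0827% in IFM. The bin E004, which every transcript has, stood at 4.91% and 5.03% in IFM and 35.5% and 35.6% in leg, a share that also depends on how many other bases the transcripts have. Zasp52 E009, a 2298-base coding bin, had 23.7% and 24.6% against 7.79% and 6.73% (1.74 ± 0.32), a call lost without either leg library. Zasp66 E004 had 23.1% and 23.4% against 8.28% and 8.25% (1.5 ± 0.21). Lmpt, a LIM protein, on chromosome 3L from 16865295 to 16922487, ended elsewhere. Its 4373-base bin E017, which 1 of its 15 transcripts has, held 57.7% and 60.8% in IFM and 4.21% and 4.35% in leg (3.80 ± 0.19, adjusted p = 1.30e-22), and the bin E030 6.07% and 4.08% against 24.6% and 24.9% (-2.33 ± 0.18).

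The titin-like and M-line genes had many called bins of small share. Strn-Mlck had 31 called bins, more than any other gene, with E030 at 26.6% and 26.7% in IFM and 9.58% and 11.1% in leg (1.34 ± 0.36, adjusted p = 0.0178), a call lost without either leg library. CG43897 had 16, among them the 3075-base E011 at 18.4% and 19.3% against 1.34% and 1.41% (3.78 ± 0.31). In bt (projectin), 16 of 49 bins were called although expression was not. E035 had 0.057% and 0.056% in IFM and 0.974% and 1.05% in leg (-4.15 ± 0.39). sls E020 had 7.56% and 8.34% against 2.36% and 2.81% (1.64 ± 0.41), a call lost without IFM 2 or leg a, and Unc-89 E033 2.62% and 2.61% against 0.402% and 0.34% (2.82 ± 0.34). shot, the spectraplakin that ties microtubules to actin, had 24. Its E007 held 77.6% and 77.7% of a pair with E008 in IFM and 11.1% and 8.98% in leg (2.95 ± 0.37).

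Calcium and energy genes switched exons beside their change in level. SERCA, higher in leg, used the bins E003 to E006 more in IFM. Its 3′ UTR bin E005 had 5.92% and 6.69% of counts there against 0.436% and 0.329% (4.07 ± 0.28, adjusted p = 4.35e-15). RyR E015 held 11.4% and 8.01% of its pair of 100-base exons in IFM and 61.4% and 66.1% in leg (-2.96 ± 0.45). Amph E009 had 1.09% and 0.98% of its gene's counts against 4.89% and 4.2% (-2.13 ± 0.19). Phosphofructokinase (Pfk), the committed step of glycolysis, was at 2187 and 3203 CPM against 263 and 286 CPM and also changed its 109-base exon. E010 held 87.2% and 87.8% in IFM against 21.6% and 18.9% in leg (2.31 ± 0.35, adjusted p = 1.40e-05), and E011 6.72% and 6.06% against 43.7% and 45.7%. slgA, the mitochondrial proline dehydrogenase, used E011 for 82.4% and 88.7% of its 122-base pair in IFM and 8.48% and 4.14% in leg (3.77 ± 0.23).

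Genes of every cell differed in exon use too. The sodium-potassium pump Atpalpha used E014 for 39.3% and 43.8% of its 95-base run in IFM and 15.9% and 12.9% in leg (1.83 ± 0.23). 14-3-3zeta used E013 for 19.9% and 19.3% against 50% and 51.4% (-1.52 ± 0.21). In both runs each tissue used several exons, in other proportions.

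The largest difference in a bin's share among the named bins lay in a cuticle gene. Cpr73D, whose level was lower in IFM (-2.93 ± 0.22), had 87.2% and 84.2% of its IFM counts in the 5′ UTR bin E006, against 2.77% and 2.55% in leg (5.01 ± 0.35, adjusted p = 6.59e-08). Its bin E001, with the 3′ UTR, had 4.37% and 6.09% against 56.9% and 58.1% (-3.42 ± 0.32). Stat92E, the transcription factor of JAK/STAT signalling, had 7.97% and 7.25% in the 3′ UTR bin E001 against 30.9% and 29.8% (-2.0 ± 0.22). alpha-Man-Ia E012 had 9.35% and 5.24% against 28% and 30.7% (-2.01 ± 0.25), and neither gene was called for expression. CkIIbeta E020 (-2.25 ± 0.29) and CG4733 E005 (-2.30 ± 0.22) were used more in leg. The calls of CG42673 E012, CG9812 E001, Cpr62Bb E001, gfzf E005 and Chchd2 E002 were lost without either leg library. That of Rbp6 E002, at 44.4% and 32.2% in leg a and leg b, was lost without leg a or either IFM library.

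**Figure D4:**
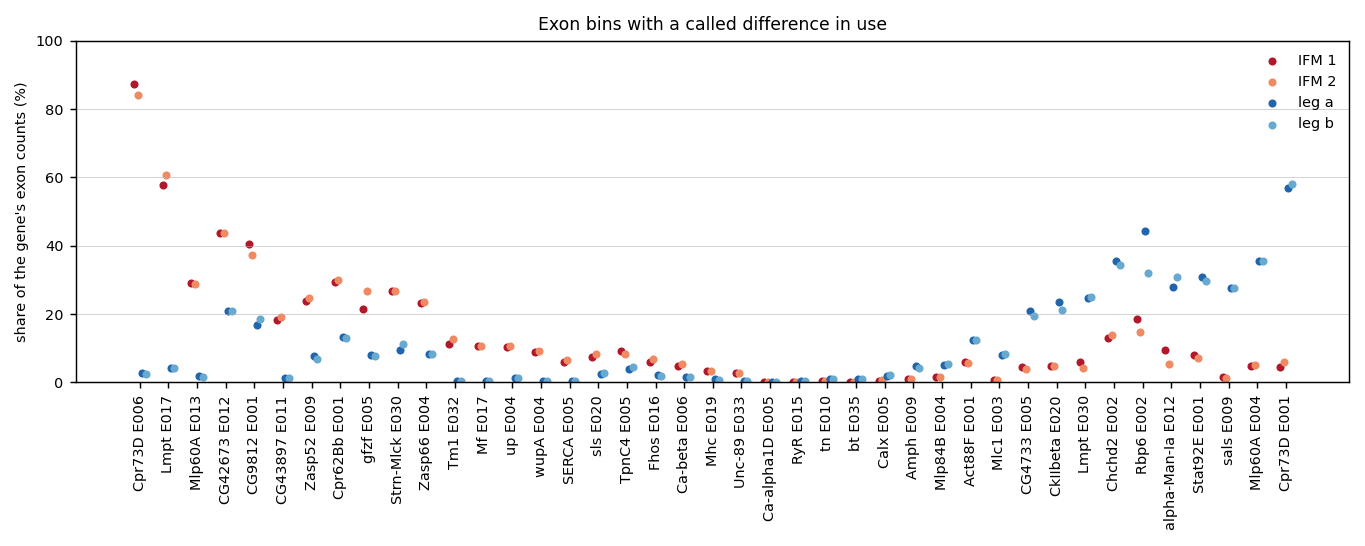
Share of the gene's exon counts (percent) that falls into each named bin, per library, ordered from the largest difference in favour of IFM to the largest in favour of leg. Each point is 1 library, IFM in reds and leg in blues. Cpr73D E006 and Lmpt E017 lead for IFM and Cpr73D E001 for leg.

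Introns that the annotation lacks were read with fortuna, which assigns reads to spliced fragments guessed from the annotation. Per the paper, splice sites outside the annotation and retained introns are found in a further step. There a spliced aligner places the reads that were left over. All of these, retained introns included, are called unannotated events here, and the event libraries carry replicate numbers. The tables held 1733494 reads over such introns in IFM 1, 3397666 in IFM 2, 542252 in leg 1 and 524729 in leg 2, over 95922 introns. With at least 150 reads in a tissue, 3375 introns were found in IFM and 951 in leg, and 599 in both. This cut is on raw reads and was not scaled for the larger totals of IFM. Of 10967 events with at least 50 reads, 3799 (34.6%) were called higher in IFM and 2669 (24.3%) in leg. Relative to the level of their gene, 9718 events were tested, and 1786 (18.4%) were higher in IFM and 2238 (23%) in leg. Without IFM 1, 2477 of these calls were made, and without IFM 2, 2292. Genes called for exon use had a relative call in 47.7% of their events and other genes in 36.5%.

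Most events skip annotated exons (8946 of those tested), and of these 1679 were higher in IFM relative to the gene and 1992 in leg. Alternative acceptors gave 44 calls for leg and 16 for IFM among 119, and alternative donors 53 and 15 among 169. Retained introns gave 8 calls for leg and 1 for IFM among 24. By gene list, the 749 events of thick filament genes gave 205 calls for IFM and 219 for leg, and the 282 of thin filament genes 82 and 76. Over all events tested relative to the gene, 18.4% were higher in IFM and 23% in leg.

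Reads of an event cross into the exons at both of its ends, so they were set beside the exon counts there, a check added after the values were seen. Event reads add both read ends, so a read pair can count 2 times. Of 9257 relative events with an exon bin at both edges, 665 (7.18%) had more reads in a tissue than the less counted of both bins had counts. For Mhc, an event on chromosome 2L, from 16769290 to 16774450, was supported by 18618 and 41130 IFM reads and by 0 leg reads. It starts at the end of E009, the rare 144-base exon, which had 226 and 450 counts in IFM. The bins inside it held 16.5% and 16.3% in IFM and 17.8% and 17.5% in leg of Mhc counts. On chromosome 4, a bt event from 738988 to 772403 had 1156 and 3273 reads against 266 and 481 counts in its first bin. An Atpalpha event on chromosome 3R, from 20959380 to 20973173, had 485 and 920 against 52 and 59. On the leg side, a bt event from 726962 to 772403 had 359 and 243 reads against 81 and 73 counts. These 4 events carry more reads than an exon they would join, and what lies behind the excess was not tested. Of the 3809 relative calls with bins at both edges, 349 are of this kind. The other 3460 hold 1531 calls for IFM and 1929 for leg.

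Among events whose reads are no more than the counts of both exons, Unc-89 had the most IFM reads of those named. Its event from E001 to E009 had 1207 and 3013 reads in IFM and 0 in leg, where these bins had 6094 and 6155 and 10836 and 10332 counts. With 3 reads over both leg libraries together as the floor, it was at least 72-fold higher in IFM relative to the gene. The Mlp60A event joins E004 to E011 of the long form, with 1427 and 2301 reads against 0, at least 104-fold relative to the gene. Ca-alpha1D had 750 and 1498 reads from 16177394 to 16184138 on chromosome 2L against 0, at least 66.5-fold. CG9297, a gene higher in leg (-3.22 ± 0.25), had 233 and 262 reads over an event on chromosome 3R, from 13774837 to 13777910, against 0, at least 403-fold relative to the gene. bru1 had 699 and 1158 reads over an event from 12282562 to 12300610 with 0 in leg, and no bin at one of its edges. Since bru1 itself was so low in leg, this is at least 1.94-fold relative to the gene. Chosen after their values were seen, up (466 and 981 reads, E013 to E020), Tm1 (544 and 832) and Mf (379 and 666) had further events with 0 reads in leg.

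For leg, the Mhc event from 16771141 to 16784251 had 462 and 406 reads in leg and 0 in IFM. It ends at E032, the 79-base exon used more in leg, which had 35583 and 35842 counts there and 2137 and 5117 in IFM. At 3 reads over both IFM libraries together, it was at least 3186-fold higher in leg relative to the gene. Mtpalpha, a subunit of the trifunctional enzyme of fatty acid oxidation, had 163 and 214 reads against 0 from 9574406 to 9576518 on chromosome 2L, at least 988-fold relative to a gene that was higher in IFM. The integrin mys had 538 and 441 reads against 0 from 8065532 to 8067560 on chromosome X, at least 688-fold. The glutamate transporter Eaat1 had 190 and 188 against 0 from 9338521 to 9339620 on chromosome 2L, at least 478-fold. The bins inside the mys event held 16.9% and 16.4% in IFM and 15.7% and 16.3% in leg of the gene's counts, and those inside the Eaat1 event 17.9% and 19.5% in IFM and 18.8% and 17.6% in leg.

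Some named events are of doubtful form. The event of CG43367, from 4212916 to 4212920 on chromosome 3L, spans 5 bases and had 1394 and 1364 reads in leg and 0 in IFM. It starts at the base after the end of the cuticle gene Cpr64Ac, at 4212915, which was at 2679 and 2649 CPM in leg and 104 and 95.7 CPM in IFM. CG9297 had 1352 reads in leg 1 and 0 in leg 2 over a leg event from 13775459 to 13775530, so its call relative to the gene (edgeR adjusted p = 0.0448) rests on 1 library. Ca-alpha1D had a leg event with 89 and 67 reads against 0 whose start meets no bin edge.

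**Figure D5:**
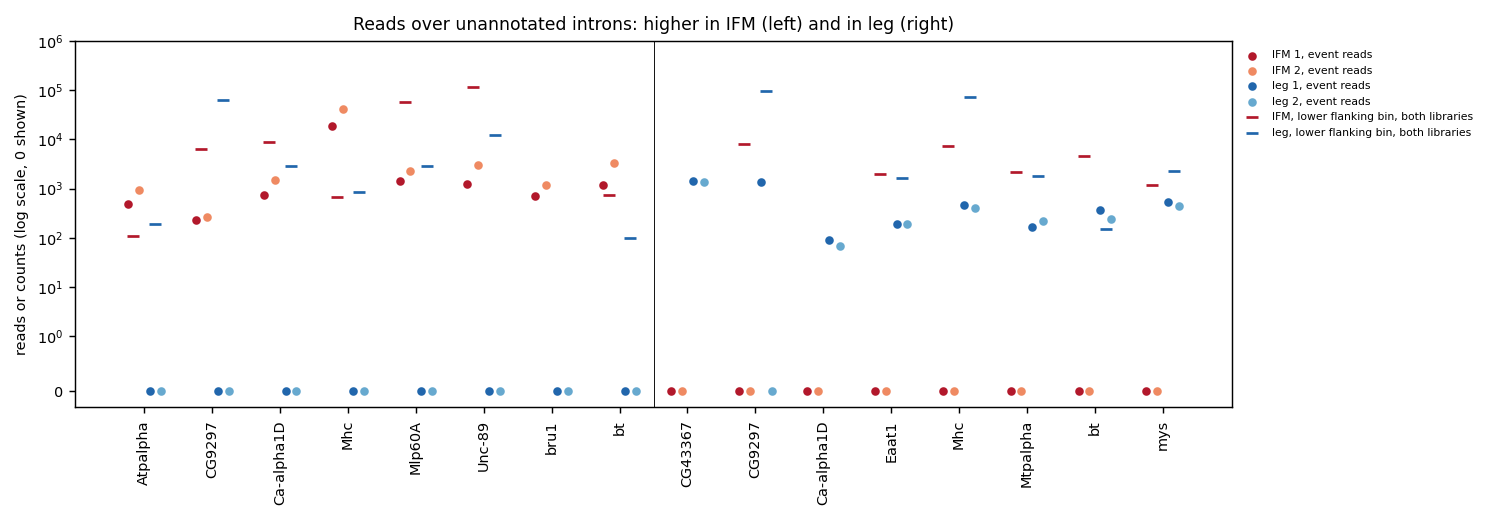
Reads over the named unannotated introns in each library (points) and, as dashes, the summed counts of the less counted exon bin at their edges in both libraries of a tissue, on a log axis that also shows 0. Events higher in IFM relative to the gene stand left of the line and those higher in leg right of it. For Mhc, bt and Atpalpha on the left and bt on the right, the reads of the event's own tissue exceed the dash.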

How the data were processed

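RNA of 2 IFM and 2 leg libraries was analysed. Per the labels, the authors used STAR 2.7.3a, SAMtools 1.1, featureCounts of Subread 2.0.0 and DESeq2 1.32.0 with the BDGP6 genome. The deposited exon table holds raw counts per exon bin from DEXSeq, in which a read over several bins counts in each. The DEXSeq version and the strand setting of its counting are not given in the sources used here. The 4849 bins that overlap another gene were left out of bin tests but kept in gene sums, so the sums of 3503 genes with such bins are uncertain. The fortuna tables deposited by the authors hold raw read counts per unannotated intron and read end, and both ends were added. The deposited gene table gives a mean normalized signal over all 4 libraries, which was looked up beside the sums and entered no test. Its columns of log2 fold changes and p-values, and those of the exon table, were not used.

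Members and gene lists were chosen with earlier results of these data known. Bins were summed per gene. Genes with at least 1 CPM in 2 libraries were tested with edgeR 4.0.16 in R 4.3.3 (TMM, quasi-likelihood F test, 2 IFM against 2 leg libraries, tissue as the only factor, Benjamini-Hochberg adjustment at 0.05). Exon use was tested with diffSpliceDGE in bins of at least 50 counts. Events with at least 50 reads were tested like genes, also with the tissue mean of gene CPM plus 0.1 as offset. Standard errors are the log2 fold change over the square root of the test statistic F. An exact permutation test of a single gene could not go below p = 0.333 with these groups. Floors of 3 reads cover counting error only. Alternatives were DESeq2 1.42.0, limma 3.58.1, other scalings, filters, offsets and libraries left out. Scripts were tested on simulated data. Named genes are the 10 largest changes per direction at a mean of at least 50 CPM with no shared bins, the 4 most counted genes of each list with all genes of the filament and identity lists, the bin with the largest difference in share of the 10 leading genes per direction and of called muscle genes, the 5 most counted genes called for exon use alone, and 8 events per direction with at least 150 reads. Other genes and bins, the low paralogs, the Osi family and the exclusive exon runs were chosen after values were seen. Python 3.11.15, pandas 2.3.3, numpy 2.4.6 and matplotlib 3.10.9 did the rest.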

Additional observations from a re-analysis of the deposited data

How the results depend on the processing

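Counts of calls depended on the setting as follows. Gene expression had 5775 calls, and 3036 against a 2-fold change, while DESeq2 (6358), total scaling (6497), no filter (6561), the largest bin of each gene (5704) and a fit of all 6 libraries (6214) stayed within 1.5 times. Leaving out 1 library gave 4184 to 4891. Exon use had 1680 bins and 590 genes, limma 3361 and 1042, and leaving out 1 library 786 to 1262 and 250 to 392. Unannotated events had 6468 calls, read end 1 alone 3487, and leaving out 1 library 4498 to 6680. Relative to the gene there were 4024 calls, read end 1 alone gave 2536, and leaving out 1 library 2292 to 4535. Read end 1 alone leaves fewer events to test. With it, 11 of the 3229 shared calls of events and 20 of the 2172 shared relative ones had the opposite sign. In each other setting of the events, 0 or 1 shared call did. A tissue left with 1 library is assumed to vary like the other one. Under total scaling, Zasp66 (-0.00985), Mcad (-0.145) and Rpn9 (-0.504) changed sign. Among genes named above, Mhc, Mlc2, tn, RyR, jp, RpL41 and Mtpalpha lost their call in that setting. The leg event of CG9297 had a fitted log2 value of 0 without leg 1, and leaving out each library in turn gave -14.96 to 0 for its reads and -12.69 to 0 relative to the gene. Under total event reads as the only scaling, 48.4% of called events were higher in IFM, against 58.7%. Replicate numbers showed no shared effect in the event libraries: the correlation of replicate differences over 10967 events was 0.0103. With 1 difference per tissue, this cannot tell whether the libraries were paired. A replicate block gave 6056 calls of events and 3679 relative ones, within 1.5 times of the counts without it. No paired analysis was possible for genes and exon use because the leg columns carry no replicate number. Over the 189 named genes and all settings, 113 single calls were lost and 55 gained. Depth limits genes that are low in leg, such as bru1, whose events leave a wide bound.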
